A study of Homo sapiens with 12 samples.

Results

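RNA of HCT116, a human colon carcinoma cell line, was sequenced, and 9 genes that answer to bone morphogenetic proteins (BMPs) and transforming growth factor beta (TGF-beta) are described: ID1, ID2, ID3, ID4, SMAD6, SMAD7, SKIL, BAMBI and TGIF1. They were named for their known place in these pathways, and all 9 were found by Ensembl identifier among the 58051 genes of the count tables. All cells received an siRNA, a double-stranded RNA that directs the cell to destroy a matching transcript, 24 h before serum was withdrawn and were then starved for 48 h. The siRNA was siControl, siPFDN2 or siPFDN5, of which the last 2 are directed at subunits of the chaperone prefoldin. Cells were taken either straight after starvation (before serum) or 90 min after serum was given back (after serum), which gave 6 groups of 2 libraries. Nothing in the labels says that the 2 libraries of a group came from separate cultures, so the p-values measure the spread between these libraries, which may be technical.

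BMPs and TGF-beta bind paired serine/threonine kinase receptors that phosphorylate SMAD proteins, which then enter the nucleus with SMAD4 and bind gene control regions. BMP signals act mainly through SMAD1, SMAD5 and SMAD9, for which the ID genes and SMAD6 are classic targets, and TGF-beta and activin act mainly through SMAD2 and SMAD3, for which SMAD7 and SKIL are. Several members feed back on the pathway as inhibitors. HCT116 is known for inactivating mutations of the TGF-beta type II receptor gene TGFBR2, and serum carries BMPs along with many other growth factors.

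Levels are given as CPM, a gene's counts over its whole body relative to the library's total after TMM scaling, which sets a factor for each library so that most genes are level. Counts per library ran from 59784425 to 136504590. PFDN2 had 7.55 and 8.49 CPM under its own siRNA before serum against 11.5 and 11.2 in siControl, and 8.73 and 9.47 after serum against 19.5 and 16.3. PFDN5 had 41.0 and 44.2 CPM under its own siRNA before serum against 76.8 and 68.9 in siControl, but 67.5 and 68.6 after serum against 67.9 and 74.0, so that the libraries labelled siPFDN5 after serum show little or no loss of their target. The second siPFDN2 library before serum stood apart: its deviations from the other libraries followed the GC content of the genes (Spearman's rho 0.815 over 12113 genes, against -0.463 to 0.124 in the other 11 libraries). The epithelial markers EPCAM, CDH1, KRT8, KRT18 and KRT19 had group means of 65.2 to 1138 CPM, and the blood markers PTPRC and CD3E lay at or below 0.116 CPM. Of the fibroblast and endothelial markers COL1A1 had 4.58 to 12.1 CPM and COL3A1, PDGFRB, PECAM1 and CDH5 at most 0.432. Averaged over the siRNAs, CDH5 rose after serum by 2.29 on the log2 scale (adjusted p 0.000173), COL3A1 by 1.01 (adjusted p 0.0298) and KRT18 by 0.33 (adjusted p 0.039) in edgeR's quasi-likelihood test, and their part in the members' results was not tested.

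In the GRCh38 coordinates of the authors' Ensembl annotation the ID genes lie at chr20:31605283-31606515 (ID1), chr2:8678845-8684453 (ID2), chr1:23557918-23559794 (ID3, minus strand) and chr6:19837386-19840684 (ID4). The inhibitory SMADs lie at chr15:66702228-66782848 (SMAD6) and chr18:48919853-48950711 (SMAD7, minus strand), SKIL at chr3:170357678-170396835, BAMBI at chr10:28677342-28682939 and TGIF1 at chr18:3411608-3459978. All 9 are annotated as protein-coding.

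To show the control sequence on which SMADs and serum-driven factors could act, the stretches just before 4 of the members are printed from the RefSeq promoter table (GRCh38.p14), up to the first annotated exon or to the end of a motif that crosses it. Capitals mark matches, on either strand, to the palindromic SMAD box GTCTAGAC, the GC-rich SMAD box GGCGCC, the SMAD-binding element CAGACA, the cyclic AMP response element TGACGTCA, the AP-1 site TGACTCA and the SP/KLF box GGGCGG. The stretches lie at chr15:66701986-66702231 (SMAD6), chr3:170357465-170357677 (SKIL), chr20:31605039-31605282 (ID1) and chr10:28677271-28677345 (BAMBI), all on the plus strand, and no 2 matches in them overlap.
SMAD6: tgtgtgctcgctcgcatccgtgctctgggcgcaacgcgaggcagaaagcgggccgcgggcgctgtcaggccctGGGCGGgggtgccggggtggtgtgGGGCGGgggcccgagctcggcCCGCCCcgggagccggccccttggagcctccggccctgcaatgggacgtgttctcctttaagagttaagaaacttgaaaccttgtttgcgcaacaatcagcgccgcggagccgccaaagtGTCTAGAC
SKIL: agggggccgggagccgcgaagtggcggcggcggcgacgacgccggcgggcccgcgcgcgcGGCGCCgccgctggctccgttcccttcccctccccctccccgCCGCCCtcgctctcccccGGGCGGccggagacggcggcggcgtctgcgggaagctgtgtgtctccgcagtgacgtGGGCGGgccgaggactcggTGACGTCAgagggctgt
ID1: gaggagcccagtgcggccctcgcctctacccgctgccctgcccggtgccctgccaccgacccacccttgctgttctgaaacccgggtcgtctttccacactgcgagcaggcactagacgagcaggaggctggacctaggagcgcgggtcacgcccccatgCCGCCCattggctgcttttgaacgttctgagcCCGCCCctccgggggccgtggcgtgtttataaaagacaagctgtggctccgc
BAMBI: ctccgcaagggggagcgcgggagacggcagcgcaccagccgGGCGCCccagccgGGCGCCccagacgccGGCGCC

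The SMAD6 stretch ends in GTCTAGAC, which begins 12 bases before the RefSeq start. That box was found in 71 of 35116 windows reaching from 250 bases before to 50 bases after a start, or 0.202% of them. The SKIL stretch holds a cyclic AMP response element that begins 54 bases before the start, a motif in 1.85% of windows, together with 1 GGCGCC, which 19.2% of windows hold. In BAMBI 3 copies of GGCGCC stand in a row, beginning 209, 196 and 181 bases before the start. In ID1 no more than 2 SP/KLF boxes matched, a motif present in 45% of windows. None of the 6 motifs matched in the windows of ID3 or SMAD7. The SMAD7 windows lie at chr18:48942758-48943057, chr18:48949284-48949583 and chr18:48950916-48951215. They do not reach the start of transcript SMAD7-201 at 48952052, or the bases just before the annotated gene start at 48950711. That transcript held 51.2% to 80.8% of the estimated SMAD7 counts in 11 libraries. Motifs in those places were not looked for. None of the members' windows held TGACTCA, which 4.95% of all windows hold. A match is a run of letters and does not show that a protein is bound there.

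Compared per kilobase of exon, the members spanned a wide range before serum in siControl. The length used was that of all annotated exons of a gene together, 8.222 kb for TGIF1 and 8.563 kb for SMAD6. Single transcripts can be far shorter, such as TGIF1-204 at 1352 nt. The order below holds for this length and can differ for the lengths of the transcripts in use. ID1 was highest, at 82.5 ± 18.2 exonic CPM per kb (SD, n = 2), followed by ID2 at 25.7 ± 6.21 and ID3 at 20.1 ± 3.31. These ID proteins are helix-loop-helix proteins without a DNA-binding region, which bind E proteins and keep them off DNA. The co-repressors TGIF1 and SKIL, nuclear proteins that hold SMAD target genes down, came next at 14.3 ± 0.375 and 3.03 ± 0.0747 exonic CPM per kb. BAMBI, a receptor-like membrane protein with no kinase region that interferes with the receptors, stood at 1.85 ± 0.0236, and the inhibitory SMADs SMAD7 and SMAD6 at 0.679 ± 0.0731 and 0.667 ± 0.0766. ID4 was lowest, at 0.173 ± 0.0352 exonic CPM per kb.

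**Figure D1:**
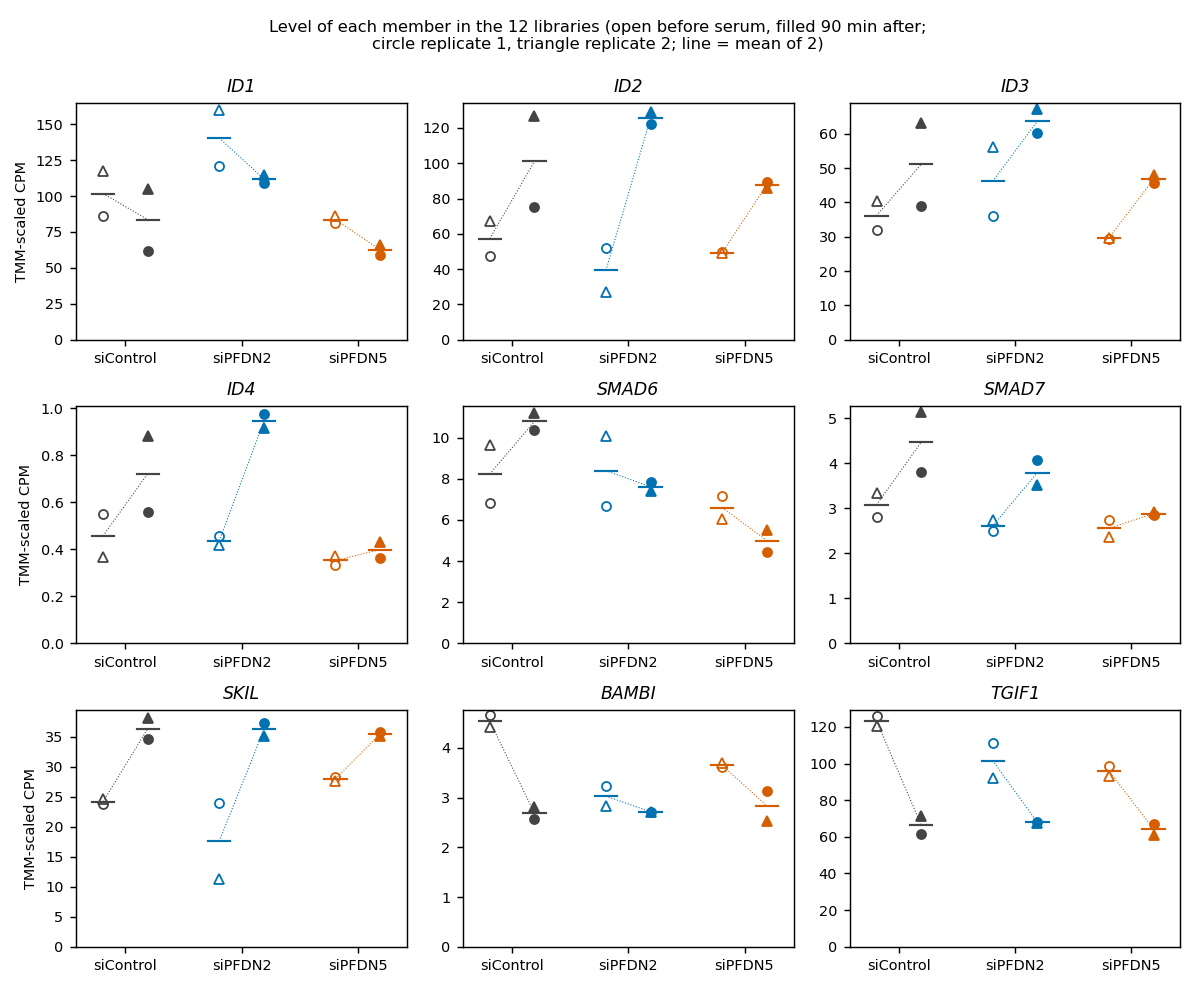
TMM-scaled CPM of each member (vertical axis, from 0) in the 12 libraries, by siRNA, with open symbols before serum, filled symbols 90 min after it and lines at the mean of 2 libraries. ID2, SMAD7 and SKIL lie higher, and BAMBI and TGIF1 lower, after serum under each of the 3 siRNAs with no overlap of the libraries.

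Averaged over the 3 siRNAs, ID2, ID3, ID4, SMAD7 and SKIL rose and BAMBI and TGIF1 fell, 7 of 9 members at a Benjamini-Hochberg adjusted p under 0.05 in edgeR's quasi-likelihood test. Over all 27915 genes tested the call was made for 14.9%, for 7.6% as higher and for 7.31% as lower. The median log2 fold change of the 9 members was 0.42, against -0.03 for all genes tested, where a log2 value of 1 is a doubling. In the siPFDN5 part of this average PFDN5 was low before serum (41.0 and 44.2 CPM) but not in the libraries labelled siPFDN5 after it (67.5 and 68.6). There, and in each siPFDN5 serum response below, serum and a difference in the knockdown or its label cannot be told apart. In bulk RNA a large change in few cells and a small one in all cells cannot be told apart. The ID genes did not move as one: ID1 had a log2 fold change of -0.34 with an adjusted p of 0.118 while the other three rose.

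ID2 rose most of the 9. In siControl it went from 47.5 and 67.1 CPM before serum to 75.4 and 126.7 after it. Under siPFDN2 it went from 51.9 and 26.8 to 122.4 and 129.2 CPM, and under siPFDN5 from 49.6 and 49.1 to 89.6 and 86.1 in the libraries labelled siPFDN5 after serum. In each of the 3 siRNAs both libraries after serum lay above both before it. On average it rose by 1.11 ± 0.18 (SE) on the log2 scale, and the adjusted p was 0.00194 in edgeR's test. The lowest value before serum, 26.8 CPM, came from the siPFDN2 library that stands apart. Without that library the averaged response of ID2 was 0.96 and kept its call.

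ID3 rose with a log2 fold change of 0.54 ± 0.14 (SE), and its adjusted p in edgeR's test was 0.029. Its siControl libraries held 32.0 and 40.4 CPM before serum and 39.1 and 63.2 after it, so that these groups overlap. Under siPFDN2 (36.2 and 56.2 before, 60.2 and 67.2 CPM after) and siPFDN5 (29.5 and 29.8 before, 45.6 and 47.9 CPM after) they do not. ID4 rose by 0.66 ± 0.17 (SE) on the log2 scale with an adjusted p of 0.0293 in edgeR's test. Its level was 0.334 to 0.977 CPM in all 12 libraries, 595 counts in all. The antisense gene AL022068.1 overlaps ID4 and had 5436 gene-body counts, and as counting took no account of strand the reads of ID4 and of this partner cannot be told apart where they overlap.

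ID1 lay lower after serum under siPFDN2, from 120.7 and 160.0 to 109.2 and 114.5 CPM, and under siPFDN5, from 81.0 and 86.2 to 59.3 and 66.1 CPM. In siControl its libraries overlapped, with 85.9 and 117.6 CPM before serum and 61.9 and 105.2 after it. All 3 estimates were negative, from -0.42 to -0.28 on the log2 scale, and none passed the test. With the GC trend of each library removed, the estimate under siPFDN2 was 0.06, so its direction there flips with that correction.

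SKIL and TGIF1, both co-repressors, went opposite ways. SKIL went from 23.8 and 24.6 to 34.6 and 38.2 CPM in siControl, from 24.0 and 11.3 to 37.3 and 35.2 under siPFDN2, and from 28.3 and 27.7 to 35.9 and 35.1 under siPFDN5. After serum its 6 libraries held nearly the same level, 34.6 to 38.2 CPM, while before serum they held 11.3 to 28.3, the lowest again in the siPFDN2 library that stands apart. The averaged response was 0.66 ± 0.15 (SE) on the log2 scale with an adjusted p of 0.0164 in edgeR's test.

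TGIF1 fell from 126.2 and 120.5 to 61.5 and 71.5 CPM in siControl. Under siPFDN2 it went from 111.3 and 91.9 to 67.9 and 67.8 CPM, and under siPFDN5 from 98.9 and 93.2 to 67.2 and 61.2. The 6 libraries before serum all lay above the 6 after it. Among the members this was the smallest adjusted p, 0.000337 in edgeR's test, at a log2 fold change of -0.69 ± 0.084 (SE).

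Of the inhibitory SMADs, SMAD7, which blocks both branches, rose by 0.42 ± 0.12 (SE) on the log2 scale, with an adjusted p of 0.0345 in edgeR's test. It stood at 2.81 and 3.34 CPM before and 3.80 and 5.13 after serum in siControl, and at 2.49 and 2.73 before and 4.07 and 3.51 after it under siPFDN2. In siPFDN5 it went from 2.74 and 2.37 to 2.85 and 2.91 CPM, a log2 fold change of 0.17. SMAD6, which acts mainly on the BMP branch, gave no call and no steady direction: its log2 fold change was 0.39 in siControl, -0.14 under siPFDN2 and -0.40 under siPFDN5. Its averaged value was -0.05 and took the opposite sign under exon counts (0.02) and with the GC trend removed (0.10). BAMBI fell by 0.43 on the log2 scale (SE 0.100, adjusted p 0.0174 in edgeR's test), from 4.66 and 4.41 to 2.56 and 2.81 CPM in siControl. Under siPFDN2 it went from 3.23 and 2.83 to 2.72 and 2.71 CPM, and under siPFDN5 from 3.61 and 3.69 to 3.13 and 2.54.

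Libraries after serum lay above those before it, without overlap, under all 3 siRNAs for 3 members (ID2, SMAD7 and SKIL), which held for 7.25% of all genes tested. They lay below for 2 members (BAMBI and TGIF1), against 6.09% of all genes. The averaged calls of ID2 and TGIF1 were made under all 21 alternatives tried, that of SKIL under 16, BAMBI under 13, ID3 and ID4 under 11 each and SMAD7 under 9. Scaling by library size alone ended the calls of SMAD7, ID3 and ID4, with adjusted p of 0.129, 0.0719 and 0.0603 in edgeR's test. Leaving out 1 library took the count of 7 members to between 2 and 7. It fell to 2 without either siPFDN5 library before serum, to 3 without the first siControl library before serum, either siPFDN2 library after serum or the second library labelled siPFDN5 after serum, and to 4 without the second siControl library before serum, the second after serum or the first labelled siPFDN5 after serum. Using only the siControl and siPFDN2 libraries it was 2, ID2 and TGIF1. These counts stand without the share of all genes called in the same fits and are not read as results about the members.

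**Figure D2:**
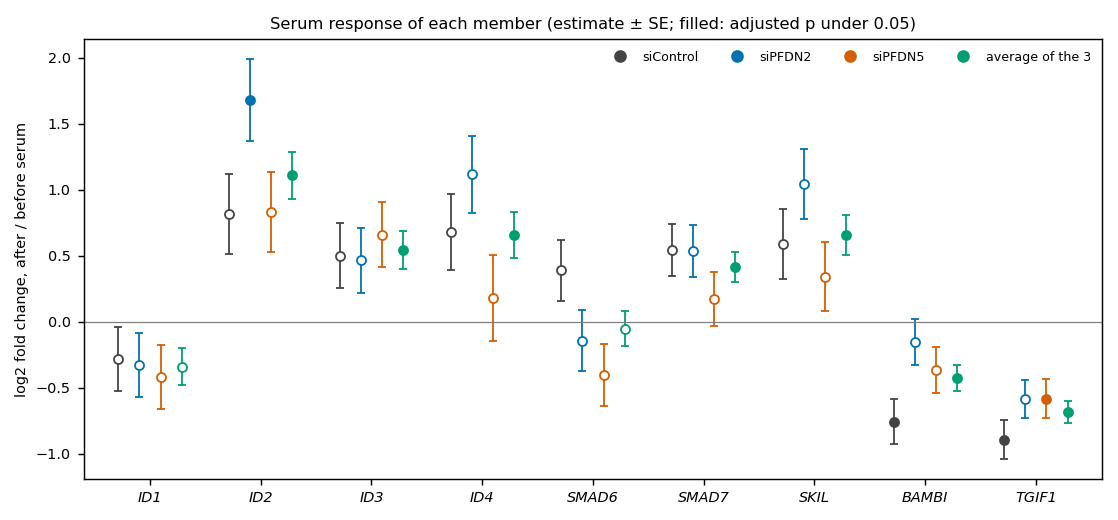
Log2 fold change of each member after against before serum (vertical axis, with SE bars) in each siRNA and on average, filled where the adjusted p is under 0.05. The averaged values run from -0.69 in TGIF1 to 1.11 in ID2, and ID1 and SMAD6 are the open green points.

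Within a single siRNA fewer members passed. In siControl 2 of 9 did, both lower: TGIF1 at -0.89 (SE 0.146, adjusted p 0.00627 in edgeR's test) and BAMBI at -0.76 (SE 0.172, adjusted p 0.041), where 2.87% of all genes were called and 0.394% as lower. Both calls were lost without either siControl library before serum or the first after it, with adjusted p in edgeR's test of 0.0628 to 0.0971 for TGIF1 and 0.211 to 0.327 for BAMBI. The BAMBI call was also lost without either siPFDN2 library after serum or any 1 siPFDN5 library (0.0755 to 0.0964 in edgeR's test), with the replicate block (0.058) and with no filter on low counts (0.0588). In siPFDN2 1 of 9 passed, ID2 at 1.68 (SE 0.310, adjusted p 0.0148), against 3.26% of all genes. Without the siPFDN2 library that stands apart the values there were 1.28 for ID2, which lost its call, 0.59 for SKIL and -0.72 for TGIF1. That fit leaves 1 library in the group, so calls gained in it are not read as results about the members. The ID2 call was also lost without either siPFDN2 library after serum, with adjusted p of 0.0827 and 0.0989 in edgeR's test. With the GC trend removed 5 members were called in siPFDN2, ID2, ID3, SKIL, SMAD7 and TGIF1, against 6.72% of all genes. In siPFDN5 1 of 9 passed, TGIF1 at -0.58 (SE 0.146, adjusted p 0.0306 in edgeR's test), where 12.2% of all genes did, and its call was lost without any 1 of the 4 siPFDN5 libraries, with adjusted p of 0.127 to 0.221 in edgeR's test. It was also lost without either siControl library before serum or either siPFDN2 library after serum (0.0622 to 0.075 in edgeR's test). Fitted on the siPFDN5 libraries alone, 7 members were called, and so were 54.5% of all genes.

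Whether the knockdowns changed the members was asked at each time against siControl. None of the 9 passed in any of the 4 comparisons in edgeR's test, where the share called among all genes was 0% for siPFDN2 before serum, 0.00716% for siPFDN5 before serum, 0% for siPFDN2 after serum and 0.00358% in the last, with the libraries labelled siPFDN5 after serum. At an unadjusted p under 0.05 the members counted 1, 1, 0 and 3 in that order, and the shares of all genes were 11.3%, 12.3%, 6.26% and 21.6%. DESeq2 called 0, 0, 0 and 1 of them, against 0.0573%, 1.06%, 0.00716% and 6.34% of all genes.

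SMAD6 came nearest. After serum it had 10.4 and 11.2 CPM in siControl, 7.83 and 7.40 in siPFDN2 and 4.46 and 5.53 in the libraries that carry the siPFDN5 label. The 3 groups do not overlap. In exon counts alone siPFDN2 (5.71 and 4.92 CPM) overlapped siControl (5.27 and 7.88), and the labelled siPFDN5 libraries (3.72 and 4.68) lay below both. Introns gave 49.3% and 29.7% of the SMAD6 counts in siControl and 16.7% and 15.4% in the labelled siPFDN5 libraries. The annotated exons of SMAD6 include transcript SMAD6-205, an unbroken stretch of 5198 nt inside the gene. Here and below, exon counts of SMAD6 can thus hold unspliced RNA, and its intronic counts leave that stretch out. Against siControl the labelled siPFDN5 libraries gave -1.11 ± 0.23 (SE) on the log2 scale with an adjusted p of 0.0725 in edgeR's test. Over 21 alternatives this value ran from -1.268 to -0.753 and was called in 7. DESeq2 gave -1.09 with an adjusted p of 0.00189. The edgeR call was made without either siPFDN2 library before serum (adjusted p of 0.000952 without the one that stands apart), and with the GC trend removed (-1.08, adjusted p 0.00964 in edgeR's test). These settings also called far more genes in all, 23.6% and 23.9% without the first or the second of those libraries and 13.5% with the GC trend removed, against 0.00358% with all 12 libraries. Before serum SMAD6 held 6.82 and 9.66 CPM in siControl, 6.70 and 10.1 in siPFDN2 and 7.17 and 6.04 in siPFDN5, and these groups overlap.

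SMAD7 and ID4 also lay lower in the libraries labelled siPFDN5 after serum than in siControl, with log2 differences of -0.64 and -0.87 and adjusted p of 0.114 and 0.136 in edgeR's test. Without the first or the second siPFDN2 library before serum both were called, SMAD7 with adjusted p of 0.0163 and 0.0159 and ID4 with 0.0474 and 0.0464 in edgeR's test, where 23.6% and 23.9% of all genes were called. Before serum BAMBI lay lower in siPFDN2 (log2 difference -0.58, adjusted p 0.442 in edgeR's test) and TGIF1 in siPFDN5 (-0.36, adjusted p 0.356). ID1 was highest in siPFDN2 before serum, with both libraries above both siControl libraries and a log2 difference of 0.46 (adjusted p 0.462 in edgeR's test). As the target gene was not reduced in the libraries labelled siPFDN5 after serum, the differences there are given by label.

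**Figure D3:**
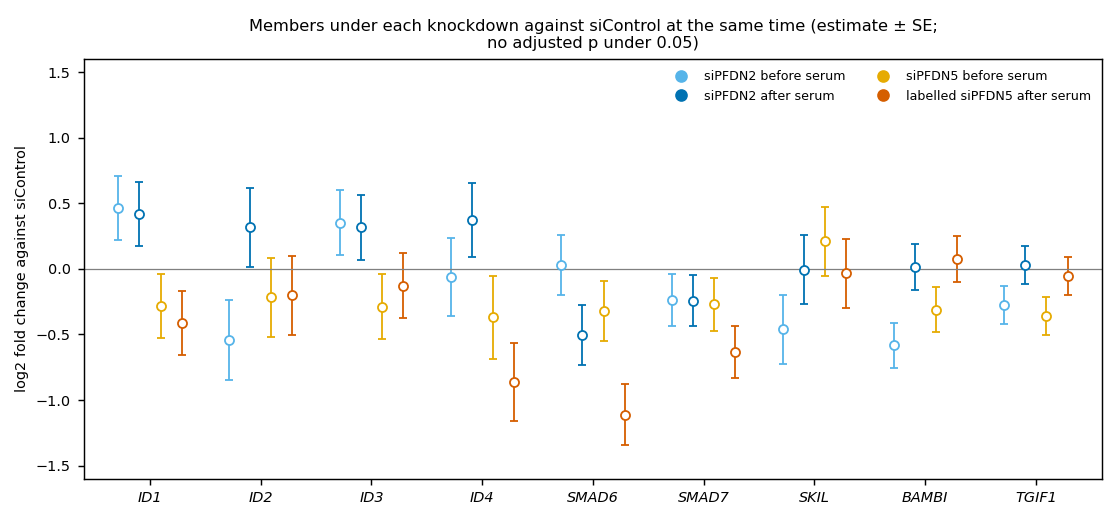
Log2 difference of each member from siControl at the same time (vertical axis, with SE bars) under siPFDN2 and siPFDN5, before and after serum. No value has an adjusted p under 0.05, and the lowest is SMAD6 in the libraries labelled siPFDN5 after serum, at -1.11.

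The serum response itself differed between a knockdown and siControl for none of the 9 members in edgeR's test (0% of all genes for siPFDN2 and 0% for siPFDN5). At an unadjusted p under 0.05 there was 1 member in each, where 6.6% and 20.9% of all genes passed. The response of BAMBI was -0.16 in siPFDN2 and -0.76 in siControl, a difference of 0.60 ± 0.24 (SE) on the log2 scale with an adjusted p of 0.582 in edgeR's test. The response of SMAD6 was -0.40 in siPFDN5 and 0.39 in siControl, a difference of -0.79 ± 0.33 (SE) with an adjusted p of 0.2 in edgeR's test. Over 21 alternatives this SMAD6 difference ran from -1.053 to -0.254 and was called in 2. In exon counts alone SMAD6 did not fall clearly in siPFDN5, with 3.89 and 3.94 CPM before serum and 3.72 and 4.68 after it. In siControl its exon levels were 5.24 and 6.17 CPM before and 5.27 and 7.88 after serum, which also overlap. Without the siPFDN2 library that stands apart the SMAD6 difference was -0.78 and passed (adjusted p 0.0318 in edgeR's test), where 21.8% of all genes passed as well. It passed likewise without the other siPFDN2 library before serum (adjusted p 0.0322 in edgeR's test, with 21.5% of all genes). Without that other library 5 members were called in the siPFDN2 difference, BAMBI, ID2, SKIL, SMAD6 and TGIF1, along with 37.7% of all genes. DESeq2 called 0 members in both differences, and 0.00716% and 6.07% of all genes.

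In the order of the 6 group means most neighbours overlap. For ID1 the order ran from siPFDN2 before serum (140.3 CPM) and after serum (111.8) through siControl before serum (101.8), siPFDN5 before serum and siControl after serum (83.6 each) to the libraries labelled siPFDN5 after serum (62.7), with 4 of 5 neighbouring pairs overlapping. By their means ID2, ID3 and SKIL had all 3 groups after serum above all 3 before it, and BAMBI and TGIF1 the reverse. The libraries overlap at that border for ID3 (siPFDN5 after serum 46.8 CPM, siPFDN2 before serum 46.2) and for BAMBI (2.83 and 3.03 in the same groups). The share of all genes with such an order was not counted. For ID2 the means fell from 125.8 CPM in siPFDN2 after serum to 39.4 in siPFDN2 before serum, and the gap between after and before was the only one of 5 where neighbours did not overlap. SMAD6 had the fewest overlapping neighbours, 2 of 5.

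Libraries made from total RNA with random primers also hold unspliced RNA, which was read as intronic counts, the gene-body counts minus the exon counts. Of the 9 members 6 could be tested. ID1 and ID3 had no intronic count, since the exons of their annotated isoforms cover nearly all of the gene, and ID4 had too few. Introns gave 15.4% to 49.3% of the SMAD6 counts, 9.9% to 26.0% for SMAD7, 4.4% to 7.0% for TGIF1 and 0.7% to 2.6% for ID2. Over all genes the intronic share was 22.8% and 25.9% in siPFDN5 before serum, 17.2% and 14.8% in the libraries labelled siPFDN5 after serum and 15.0% to 20.9% in the other 8, and the part of this shift in the results below was not tested.

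The intronic serum response passed for 0 of 6 members in siControl (8.63% of all genes tested), for 0 in siPFDN2 (11.8%) and for 1 in siPFDN5 (27.8%). At an unadjusted p under 0.05 edgeR gave SKIL, BAMBI and TGIF1 in siControl and ID2 and SMAD7 in siPFDN2. The share of all genes at that threshold was not counted, so this list is not read as a result about the members. The antisense gene ID2-AS1 overlaps ID2 and had 1264 gene-body counts. As counting took no account of strand, intronic reads of ID2 may belong to that gene. In siControl the intronic estimates had the same sign as those of the gene body for all 6: SKIL 0.60 and 0.59, SMAD7 0.59 and 0.54, SMAD6 0.58 and 0.39, ID2 0.22 and 0.82, TGIF1 -0.52 and -0.89, and BAMBI -1.12 and -0.76. In siPFDN5 the signs of SKIL parted, with -0.26 in introns and 0.34 over the gene body, and in siPFDN2 those of SMAD6, with 0.02 and -0.14. None of these intronic values of siControl passed.

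SMAD6 was the member called. Its introns held 206 and 142 counts in siPFDN5 before serum (3.28 and 2.10 CPM) and 53 and 73 in the libraries labelled siPFDN5 after serum (0.744 and 0.854 CPM). In siControl they went from 1.57 and 3.49 to 5.13 and 3.33 CPM, which overlap. The intronic response in siPFDN5 was -1.05 ± 0.34 (SE) on the log2 scale with an adjusted p of 0.0302 in edgeR's test. It lost its call without the first siPFDN5 library before serum (-0.76) or either library labelled siPFDN5 after serum (-0.98 and -1.15). Scaled by the gene-body totals in place of the intronic ones it was -1.75, and SKIL (-0.95) and TGIF1 (-0.71) were called as well, but that scaling called 41.5% of all genes and put their median at -0.72.

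**Figure D4:**
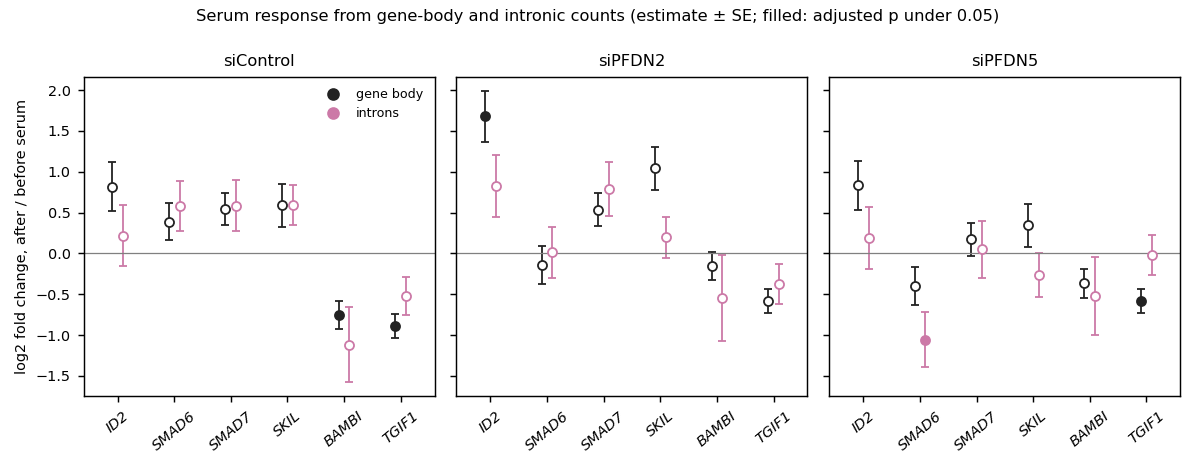
Log2 fold change after against before serum (vertical axis, with SE bars) of 6 members from gene-body and from intronic counts, in a panel for each siRNA, filled where the adjusted p is under 0.05. The intronic SMAD6 point in siPFDN5 lies at -1.05 and is the one intronic value that passed.

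The estimated counts per transcript give the share of each isoform in a member's estimate. They were not corrected for length, so a longer isoform weighs more. One ID2 transcript, ID2-203, held 87.6% to 98.7% of the ID2 estimate in 11 libraries but 54.0% in the siPFDN2 library that stands apart, where the short ID2-202 held 42.1% against 0.55% to 10.5% elsewhere. TGIF1 was spread over many isoforms, with TGIF1-204 at 32.4% to 43.5% in the same 11 libraries and 3.06% in that one. SKIL-204, the longest listed at 7182 nt, held 66.4% to 88.1% of SKIL in the 11 and 52.5% in that one. SMAD6 was split between the coding SMAD6-201 (36.9% to 51.7% in the 11 libraries) and SMAD6-205, a processed transcript of 5198 nt with no coding sequence (39.1% to 56.6%). SMAD6-205 is 1 unbroken stretch, chr15:66703077-66708274, inside the gene. Unspliced SMAD6 RNA from there can be assigned to it, so its share does not show that a non-coding form was in use. ID1-202 held 92.0% to 94.8% of ID1 in the 11 libraries, and ID4-201 all of ID4.

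The rest of the pathway was read from a list of 77 other genes in 7 roles, of which 71 were tested. In the averaged serum response 16 rose and 4 fell, with a median log2 fold change of -0.04 against -0.03 for all genes. Of all genes tested 7.6% were called higher and 7.31% lower. Higher calls were most frequent among the other target genes, of which 10 of 15 rose and none fell, with a median of 0.76. The counts in the remaining roles are small and are not read as results about those roles. Of the intracellular regulators 2 of 11 rose. Among receptors 1 of 14 rose and 3 fell, among ligands 2 of 15 rose and 1 fell, and of the signalling SMADs 1 of 6 rose. None of 7 secreted antagonists and none of 3 E proteins, the partners of the ID proteins, passed in edgeR's test. At an unadjusted p under 0.05 there were 2 and 1, given without the share of all genes and not read as a result.

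Among the targets that rose were CTGF (log2 fold change 6.37), a matrix-associated protein, TGFBI (3.89), a secreted matrix protein, and SNAI2 (3.11), a transcriptional repressor. CTGF went from 0.781 to 2.22 CPM in the 6 libraries before serum to 91.0 to 142.9 in the 6 after it. Several of these genes also answer to serum through other pathways. The members' largest response, 1.11 in ID2, was below that of each of these 3. Of the ligands INHBA, a subunit of activin, rose by 3.82 from at most 0.0749 CPM, or 8 counts in a library, and GDF15 by 0.86, while GDF5 fell by 0.74 (exon counts gave -0.27, with no call). PMEPA1, a TGF-beta target that holds SMADs back, rose by 1.65, and NEDD4L, a ubiquitin ligase that acts on SMADs, by 0.62. CTGF, TGFBI, SNAI2, INHBA, PMEPA1 and NEDD4L were called under all 21 alternatives tried.

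TGFBR2 messenger RNA was present in every library, at 52.1 to 113.8 CPM, and rose by 0.41 with an adjusted p of 0.022 in edgeR's test. Its level went from 53.9 and 57.6 to 113.8 and 77.1 CPM in siControl and from 55.3 and 52.1 to 85.0 and 81.7 in siPFDN2. In siPFDN5 it went from 64.8 and 57.0 to 52.8 and 55.4 CPM, so that it did not lie higher there. RNA counts do not show whether the receptor works. Of the other receptors ENG (-0.73), ACVR2B (-0.32) and RGMB (-0.28) fell. The calls of TGFBR2, ENG, ACVR2B and RGMB were made in 12, 13, 9 and 9 of the 21 alternatives. SMAD3 rose by 0.50 over the gene body but had -0.06 by exon counts, so that its direction depends on how reads were counted. SMAD4, the shared partner of the signalling SMADs, held 52.3 to 103.5 CPM.

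**Figure D5:**
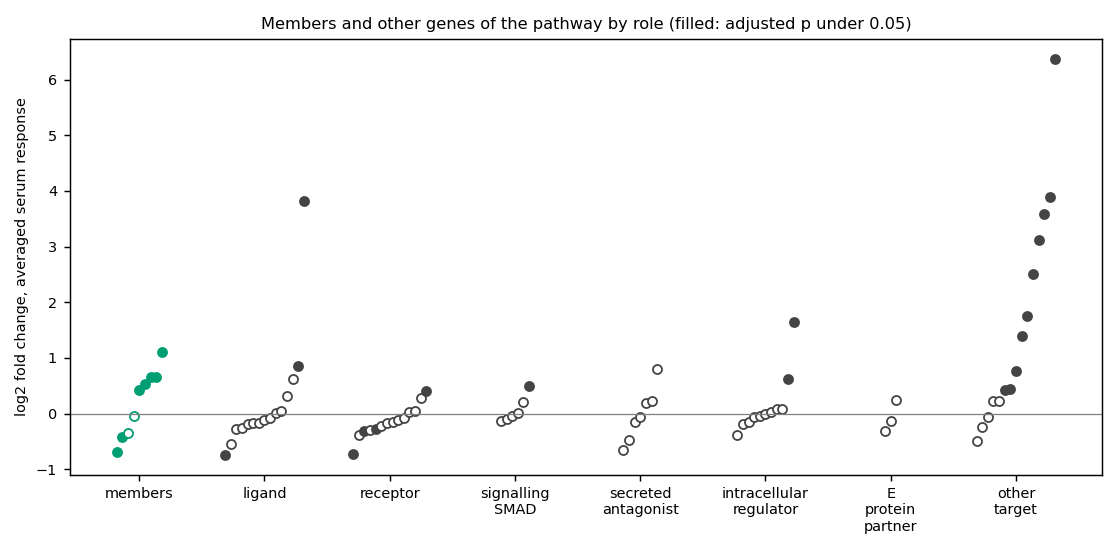
Averaged serum response (log2 fold change, vertical axis) of the 9 members and of 71 other pathway genes by role, each point a gene and filled where the adjusted p is under 0.05. The 10 filled points among the other targets reach up to 6.37, and the members run from -0.69 to 1.11.

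Among 12108 candidate genes those whose pattern over the 12 libraries was most like a member were found by the root mean square difference of log2 CPM, each gene centred on its own mean. SKIL had the closest matches, AP3S1 at 0.088 and KLHL15 at 0.099, set against a spread (SD) of SKIL itself of 0.493. The siPFDN2 library that stands apart was included, with 11.3 CPM of SKIL against 23.8 to 38.2 in the others. Its part in these matches was not tested. BAMBI was followed by ZFP90 (0.099) and ZNF641 (0.134), and TGIF1 by ZNF250 (0.106) and ZNF436 (0.113). ID2 was nearest to PPP1R3B (0.179) and SOCS6 (0.232), SMAD7 to CYP4F11 (0.15) and BCL2L11 (0.17), and SMAD6 to PRPF8 (0.188) and TPCN1 (0.195). ID1 was nearest to PLAGL2 (0.216), ID3 to CBX8 and PTPRH (0.191 each) and ID4 to AC004231.1 (0.266) and KRT23 (0.272). Members themselves were not among the candidates. The points share their libraries and depths, so likeness here is a description.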

How the data were processed

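RNA-seq was read in 12 libraries of HCT116 cells in 6 groups of 2, taken from the sample titles. Total RNA was DNase-treated, depleted of 18S rRNA and primed with random hexanucleotides, per the labels' protocols. The authors deposited 2 tables of counts, 1 over the bodies of genes and 1 over their exons, made with featureCounts 1.5.2 on Ensembl GRCh38 annotation with both ends mapped, each overlapped gene counted and no strand option, per the file headers. The files per sample hold estimated counts per transcript as deposited. The submitters' processing notes also name HISAT2 0.12.2, kallisto 0.43 and the build GRCh38.p7, without their roles. The tables hold 6 further columns, not used here.

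The 9 members, the lists and the comparisons were chosen with earlier results of these data known. Named beyond the members are PFDN2 and PFDN5, TGFBR2 and SMAD4, up to 4 called genes of each pathway role with the largest averaged serum response, genes overlapping a member and the 2 genes most like each member (mean log2 CPM of at least 3), some of which are not reported here. Genes were kept by filterByExpr, scaled by TMM and fitted with 1 model of 6 group means over all 12 libraries in edgeR 4.0.16 (R 4.3.3) by the quasi-likelihood test, two-sided, with Benjamini-Hochberg adjustment over all genes tested and calls at 0.05. SE values come from the fold change and the test statistic. Log2 CPM used a prior count of 2. Intronic counts are gene-body minus exon counts with their own scaling, and the intronic differences between siRNAs were added after seeing the data. DESeq2 1.42.0 and the other settings are compared in the closing section. Counts of 12 libraries were simulated with 1 mean for each gene, and genes above 1 CPM were changed in siControl after serum only. In the siControl serum response 98 of 100 genes changed by 2 on the log2 scale and 47 of 100 changed by 1 were called, with 10 false calls over 27276 genes. No library in the simulation was made to follow GC content, and ID4 lies below its 1 CPM bound, so these rates need not hold for the real fit. The deviations of same-numbered replicates had r of -0.322 to 0.592 over 15 pairs of groups, of both signs, so the numbers were not taken to pair the samples and no replicate block was used. Gene positions came from the authors' annotation in the count tables. Gene symbols and types and transcript positions and types came from GENCODE release 29, in which 57447 of 58051 identifiers were found.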

Additional observations from a re-analysis of the deposited data

Results flagged for a closer look

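The intronic serum response of SMAD6 differed between siPFDN5 and siControl by -1.63 ± 0.46 (SE) on the log2 scale, with an adjusted p of 0.0357 in edgeR's quasi-likelihood test of that difference, -1.05 in siPFDN5 against 0.58 in siControl. It was the one member of 6 to pass, where 12.5% of all genes tested did, and the comparison was added after seeing the data. It was lost without any 1 of 8 libraries: both siControl libraries before serum (-1.17 and -2.33), the first after serum (-1.55), both siPFDN2 libraries after serum (-1.64 and -1.63), the first siPFDN5 library before serum (-1.34) and both labelled siPFDN5 after serum (-1.56 and -1.73). The intronic share of all genes went, between the siPFDN5 groups, from 22.8% and 25.9% to 17.2% and 14.8%, and its part in the result was not tested.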

How the results depend on the processing

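Counts of the 9 members called in the averaged serum response were 7 as reported and within 1.5 times of it under every other scaling, filter, tool, GC correction and replicate block tried, but 2 with only the siControl and siPFDN2 libraries, an alternative chosen after seeing the data, and 2 to 7 when 1 library was left out. In siControl the count of 2 was 1 with the replicate block, which ended the call of BAMBI, and 0 to 3 without 1 library. In siPFDN2 the count of 1 was 3 with library size only, 2 with upper-quartile scaling, 4 with DESeq2, 4 with no filter, 3 with exon counts, 5 with the GC trend removed, 5 with the replicate block and GC trend removed, 0 with only the libraries compared and 0 to 4 without 1 library. In siPFDN5 the count of 1 was 2 with DESeq2, 3 with no filter, 3 with the GC trend removed, 3 with the replicate block and GC trend removed, 7 with only the libraries compared and 0 to 2 without 1 library. For siPFDN2 against siControl before serum the count of 0 was 0 to 4 without 1 library. For siPFDN5 before serum it was 1 with only the libraries compared and 0 to 1 without 1 library. Comparing the libraries labelled siPFDN5 after serum with siControl, 1 member was called with DESeq2, no filter, the GC trend removed, the replicate block and GC trend removed or only the libraries compared, and 0 to 3 without 1 library. The serum response differences gave 0 to 5 (siPFDN2) and 0 to 1 (siPFDN5) without 1 library, the 5 coming without the first siPFDN2 library before serum, where 37.7% of all genes were called. Intronic counts gave 0 to 1 in siControl and 0 to 1 in siPFDN5 without 1 library, and 3 in siPFDN5 with gene-body scaling. The replicate block moved no other count by more than 1.5 times. The share of all genes called also moved between settings, so a moved count is not by itself a result about the members. The cause of these moves was not tested. Of single genes, 25 values changed sign, 141 lost their call, 72 gained one and 1244 did neither.

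Of the 25 sign changes 13 were of SMAD6. The averaged SMAD6 value was 0.02 with exon counts, 0.10 with the GC trend removed with or without the replicate block, 0.12 with only the siControl and siPFDN2 libraries, 0.04 without the second siControl library before serum, 0.059 without the second siPFDN2 library before serum (-0.134 without the first) and 0.01 without the first library labelled siPFDN5 after serum. In siPFDN2 SMAD6 was 0.28 with the GC trend removed, with or without the replicate block, and -0.397 to 0.18 without 1 library. ID1 was 0.06 in siPFDN2 with the GC trend removed, 0.05 with the replicate block as well, and -0.781 to 0.05 in siControl without 1 library. SMAD3 was -0.062 with exon counts. Intronic SMAD6 in siPFDN2 was -0.18 with gene-body scaling and -0.19 to 0.293 without 1 library (-0.17 without the second after serum). In siPFDN5 with gene-body scaling SMAD7 was -0.64 and ID2 -0.50. Intronic SMAD7 in siPFDN5 was -0.32 to 0.315 without 1 library (-0.14 without the second before serum), and TGIF1 was 0.04 without the first before and 0.089 without the second after serum. Intronic ID2 in siControl was -0.58 to 0.721 without 1 library (-0.05 without the first before serum).

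Library size only in place of TMM moved the median of all genes in the averaged serum response from -0.03 to -0.17, with 1291 genes higher and 4430 lower against 2122 and 2041. With 2 libraries a group the precision of each value is low. ID4 rests on 595 counts in all 12 libraries.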
